A study of Homo sapiens with 12 samples.

Results

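The collagen genes of human fibroblasts were followed through RAS activation and treatment with 3-deazaadenosine. Members were all genes whose symbol has the form COL, a number, A and a number, which gave 44 of 62069 gene identifiers in the count table. Of these, 25 had enough reads to be tested, 17 had reads but too few to test, and 2 had no read. They fall into 11 fibrillar, 6 basement membrane, 10 FACIT and 17 other collagen genes. RNA-seq was made from IMR90 ER:RAS cells, fibroblasts of human fetal lung with an oncogenic RAS joined to an oestrogen receptor domain; the ligand 4-hydroxytamoxifen (4OHT) activates this RAS. The control group was given DMSO, the senescent group 4OHT at 100 nM, and the third group 4OHT with 3-deazaadenosine (3DA), an analogue of adenosine that blocks S-adenosylhomocysteine hydrolase. Each group had 4 libraries from cells at passage 15, collected on day 6, and all groups carried ER:RAS. The groups include neither 4OHT on cells lacking ER:RAS nor 3DA by itself, so effects of 4OHT and of RAS cannot be told apart, and 3DA was seen only beside 4OHT. The sources used here do not give the 3DA dose, the day it was added or whether the line is 1 clone.

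Collagens are secreted proteins whose chains wind around each other in a helix with glycine at regular positions. Fibrillar collagens such as types I, III and V assemble into the banded fibrils of connective tissue, which fibroblasts make in large amounts. Type IV collagens form the sheet-like network of basement membranes. FACIT collagens, whose helices are interrupted, sit on the surface of fibrils, and the remaining types form beaded filaments, anchoring fibrils, hexagonal networks or cell-surface proteins. Some types need chains from different genes in 1 molecule, as in type I collagen, which joins the chains of COL1A1 and COL1A2. Hydroxylases and chaperones in the endoplasmic reticulum prepare the chains, proteases cut off their ends outside the cell, lysyl oxidases crosslink the fibrils, and collagenases such as MMP1 cleave them.

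Library totals ran from 9451160 to 19291493 reads, and expression is given as CPM, reads per 1000000 of the effective library size, as mean ± SD of 4 libraries. Nothing in the labels ties replicates to separate cultures, so the p-values reflect the spread among these libraries alone, possibly a technical one. All 18 replicate pairs exceeded sampling noise, their chi-square divided by its degrees of freedom being 3.06 to 41.5. The 3 pairs with library 31 of 4OHT+3DA had values of 20.9 to 41.5, against at most 15.1 for the other pairs. All 10 fibroblast markers looked at were tested. They summed to 10126 to 10941 CPM with DMSO, 8724 to 9600 with 4OHT and 8566 to 9462 with 4OHT+3DA, DMSO lying above both. With 4OHT, 6 of them fell (SPARC, THY1, DCN, PDGFRB, LUM and S100A4) and 1 rose (FAP). Among all genes tested, 25.5% were called lower and 26.5% higher there. With 3DA added, VIM, SPARC and LUM were lower and PDGFRA higher, beside 12.4% lower and 14.4% higher among all genes. Epithelial markers summed to 124 to 147 CPM with DMSO, 54.99 to 59.8 with 4OHT and 41.9 to 53.7 with 4OHT+3DA. The 8 endothelial markers summed to 5.64 to 8.22 CPM with DMSO, 6.93 to 10.3 with 4OHT and 2.58 to 4.97 with 4OHT+3DA, and PECAM1 and CDH5 had no read. Of the 3 endothelial markers tested, TIE1 was higher with 4OHT (1.41, edgeR adjusted p = 0.00587) and TEK lower with 3DA added (−1.50, edgeR adjusted p = 8.17e-05). The untested KDR went from 0.111 ± 0.176 to 1.297 ± 0.668 and 0.192 ± 0.224 CPM. The 8 immune markers summed to 0.513 to 1.799 CPM with DMSO, 2.001 to 3.13 with 4OHT and 1.899 to 3.93 with 4OHT+3DA. CD3E had no read, and CSF1R, the 1 tested, was higher than in DMSO with 4OHT (1.49, edgeR adjusted p = 0.015) and with 4OHT+3DA (1.93, edgeR adjusted p = 0.0018). The filter on low counts asks for about 0.726 CPM in 4 libraries. TIE1 and CSF1R reached that level in 2 DMSO libraries each, so they were tested only because other groups were higher. The part of the cell type markers in the collagen results was not tested. In bulk RNA, fewer cells of a type and less RNA per cell cannot be told apart.

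With 4OHT, the abundant fibrillar collagens fell and 6 other collagens, most of them at low levels, rose. Collagen genes together took 0.884% to 1.02% of all reads with DMSO, 0.405% to 0.466% with 4OHT and 0.3498% to 0.444% with 4OHT+3DA. Of the 25 collagen genes tested, 14 were lower and 6 higher in 4OHT than in DMSO (quasi-likelihood test in edgeR, p adjusted by Benjamini-Hochberg, threshold 0.05). Over all 13248 genes tested, 25.5% were called lower and 26.5% higher, 52.0% in all. The filter asks for about 0.726 CPM in 4 libraries. COL10A1 reached that level in 1 DMSO library, and COL14A1 and COL15A1 in 1 4OHT library each, so these 3 were tested only because other groups were higher. Of the other 22, 12 were lower and 5 higher. The median log2 fold change of the 25 was −0.35, beside −0.011 for all genes. Libraries of both groups did not overlap for 18 of the 25, where 51.5% of all genes did not. Without library 31, 27 members passed the filter, of which 6 were higher and 17 lower; COL4A1, COL13A1 and COL9A2, which does not pass the filter over all 12 libraries, were the added ones. Leaving out 29, 30 or 32 gave 15 lower, with COL9A2 added each time. Scaling by library totals in place of TMM factors shifted the median of all genes to −0.17 and the share of called genes that were higher from 50.97% to 33.6%, and gave 4 collagens higher and 16 lower.

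Few collagen genes were called when 3DA was added to 4OHT. A gene not called may still have changed: in simulated data, 53.7% of 1.5-fold changes were recovered in this comparison. That rate is pooled over genes of all levels, and far fewer genes were changed there than were called here. It therefore does not give the rate for the collagens. Of the 25, COL12A1 and COL6A2 rose, COL1A2, COL6A3 and COL8A1 fell, and 20 were not called. Among all genes, 14.4% were called higher and 12.4% lower, 26.9% in all, so the 5 of 25 collagens lie near that background. The median log2 fold change of the 25 was 0.0039, beside 0.0051 for all genes. Groups did not overlap for the same 5 collagen genes, and for 25.0% of all genes. Without library 31 there were 3 higher and 3 lower members, COL4A2 being the added one. Library totals gave the same 2 and 3, while 67.7% of all called genes were then higher, against 53.7%. This comparison and that of 4OHT with DMSO share the 4OHT libraries, so their values are set side by side below with no measure of agreement between them.

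The cells given 4OHT and 3DA together still had less fibrillar collagen RNA than the DMSO cells. There, 13 collagen genes were lower and 5 higher, and 7 were not called. Without COL10A1, COL14A1 and COL15A1, 11 of 22 were lower and 4 higher. The shares of all genes were 24.6% lower and 27.0% higher, 51.5% in all, and the median log2 fold change was −0.32 for the collagens and 0.0086 for all genes. Groups did not overlap for 16 of the 25 members, against 44.7% of all genes. Without library 31, 5 members were higher and 14 lower, COL9A2 being the added one. With library totals, 5 were higher and 14 lower, and 41.05% of all called genes were higher, against 52.3%. The DMSO libraries are shared with the first comparison.

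**Figure D1:**
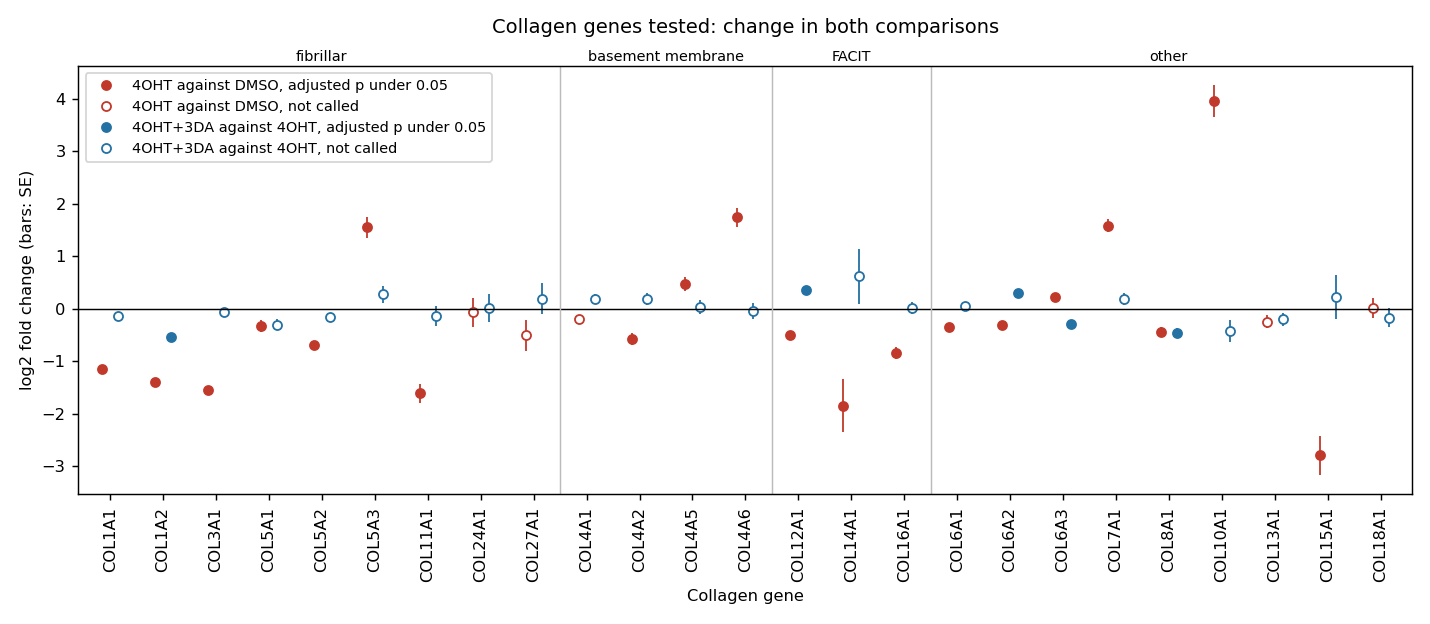
Log2 fold change of the 25 tested collagen genes (vertical axis; bars are the SE) by gene and class, for 4OHT against DMSO (red) and 4OHT+3DA against 4OHT (blue); filled points were called at an adjusted p under 0.05. With 4OHT, 14 genes lie below 0 and 6 above as filled points, while 5 blue points are filled.

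The classes differed in size and in how they stood in the 3 groups. The fibrillar class summed to 7322 ± 431 CPM with DMSO, 3053 ± 234 CPM with 4OHT and 2497 ± 227 CPM with 4OHT+3DA, with no overlap between any pair of groups. COL1A1 and COL1A2 made up 90.3% of that sum, averaged over all 12 libraries. Basement membrane collagens summed to 385 ± 41.1, 305 ± 30.1 and 342 ± 39.3 CPM in the same order, and DMSO library 20, at 324 CPM, fell within the range of 4OHT. FACIT collagens summed to 316 ± 15.1, 209.6 ± 16.4 and 255 ± 16.04 CPM, with no overlap between any pair of groups, and COL12A1 made up 77.2% of them. The other collagens summed to 1009 ± 13.1, 1027 ± 50.2 and 896 ± 68.3 CPM, and their DMSO values, 994 to 1021 CPM, lay inside the range of 4OHT. Scaled by library totals, the other collagens had 1070.5 CPM with DMSO and 977 CPM with 4OHT, so the small difference turned its direction with the scaling. These sums follow their most abundant members, in the last case COL6A3 with 61.9%.

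**Figure D2:**
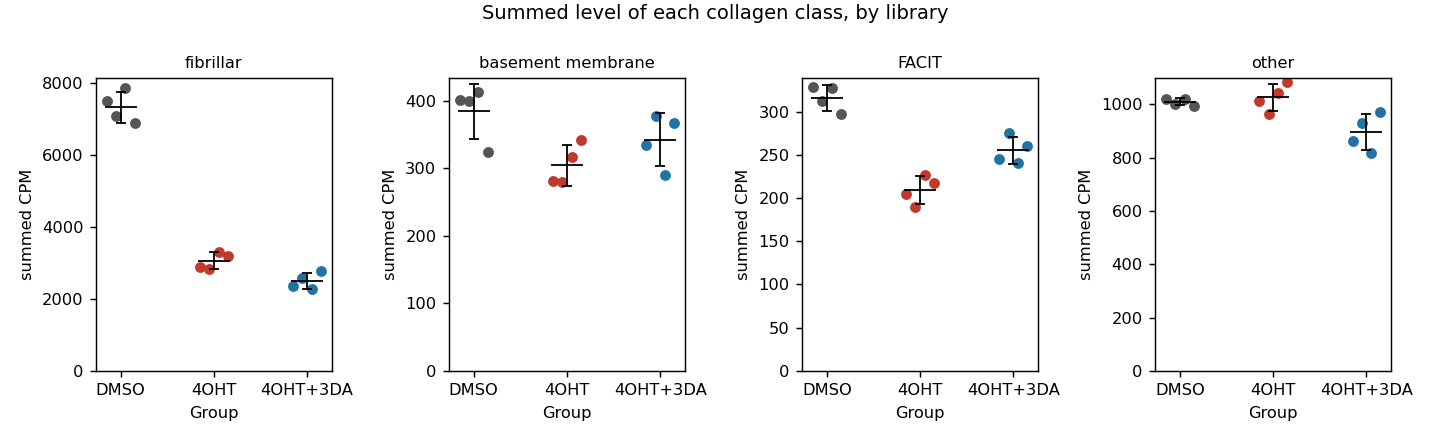
Summed CPM of each collagen class (vertical axis, from 0) in every library of the 3 groups; bars are the mean and SD of 4 libraries. The fibrillar sum falls from 6874 to 7840.2 CPM with DMSO to 2839 to 3307 CPM with 4OHT, while the DMSO values of the other collagens lie inside the 4OHT range.

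Fibrillar collagens carried most of the fall. COL1A1 (ENSG00000108821), a chain of type I collagen, was measured at 3408, 3245, 3575 and 3111 CPM in DMSO libraries 17 to 20. Its 4OHT values in libraries 21 to 24 were 1384, 1395, 1639 and 1573 CPM, and its 4OHT+3DA values in libraries 29 to 32 were 1263, 1412, 1211 and 1544 CPM. Every DMSO library thus lay above every other library, and the 4OHT and 4OHT+3DA ranges overlapped. COL1A1 was 2.23-fold lower with 4OHT (log2 fold change −1.15, SE 0.0787, edgeR adjusted p = 3.0e-10), and the step from 4OHT to 4OHT+3DA was not called (log2 fold change −0.14, SE 0.0778, edgeR adjusted p = 0.189), though it was without library 32 (−0.21, adjusted p = 0.0414). COL1A2 (ENSG00000164692), the partner chain, stood at 3412, 3176, 3527 and 3146 CPM with DMSO. It stood at 1199, 1177, 1335 and 1302 CPM with 4OHT and at 831, 879, 791 and 937 CPM with 4OHT+3DA. No pair of groups overlapped: COL1A2 was 2.64-fold lower with 4OHT than with DMSO (log2 fold change −1.40, SE 0.0666, edgeR adjusted p = 1.23e-12) and a further 1.46-fold lower with 3DA (log2 fold change −0.54, SE 0.0657, edgeR adjusted p = 6.01e-06). Against DMSO, COL1A2 was 3.86-fold lower and COL1A1 2.46-fold lower in 4OHT+3DA.

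Type III and type V chains, which share fibrils with type I, fell to different degrees. COL3A1 (ENSG00000168542), the chain of type III collagen, was at 442, 419, 494 and 405 CPM with DMSO, 144, 132, 168 and 156 with 4OHT and 140.04, 139.5, 138 and 154 with 4OHT+3DA. It was 2.93-fold lower with 4OHT (log2 fold change −1.55, SE 0.0822, edgeR adjusted p = 6.62e-12), and the 4OHT and 4OHT+3DA libraries overlapped (−0.073, SE 0.0811, edgeR adjusted p = 0.535). COL5A2 (ENSG00000204262), a type V chain, was at 171, 181, 187 and 159 CPM with DMSO, 105, 93.5, 117 and 115 with 4OHT and 91.3, 93.9, 95.1 and 106 with 4OHT+3DA. It fell with 4OHT without overlap (log2 fold change −0.70, SE 0.0815, edgeR adjusted p = 6.31e-07) and was not called between 4OHT and 4OHT+3DA (−0.16, SE 0.0815). COL5A1 (ENSG00000130635), the other main type V chain, which is known to help start fibrils, was at 41.3, 39.96, 36.7 and 32.97 CPM with DMSO, 25.3, 26.9, 32.4 and 35.3 with 4OHT and 22.5, 26.5, 23.02 and 25.5 with 4OHT+3DA. Its DMSO and 4OHT ranges overlapped, and its small fall (log2 fold change −0.32, SE 0.112, edgeR adjusted p = 0.0206) lost its call without any 1 of DMSO libraries 17 and 18 and 4OHT libraries 21 and 22 (−0.30 to −0.25). From 4OHT to 4OHT+3DA it missed the threshold (log2 fold change −0.30, SE 0.113, edgeR adjusted p = 0.0524) but passed it with DESeq2 (adjusted p = 0.0388), with a minimum mean of 1 CPM (0.0479), and without 4OHT library 21 or 22 (−0.37 and −0.35). Against DMSO, the 4OHT+3DA cells had lower COL5A1 (log2 fold change −0.63, SE 0.112, edgeR adjusted p = 0.000111).

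Minor fibrillar chains went in both directions. COL5A3 (ENSG00000080573), a type V chain of restricted expression, was at 2.06, 1.87, 1.66 and 2.64 CPM with DMSO, 4.44, 6.22, 7.31 and 6.13 with 4OHT and 7.73, 7.32, 6.504 and 7.73 with 4OHT+3DA. Every DMSO value lay below every other value, and the gene was 2.92-fold higher with 4OHT (log2 fold change 1.55, SE 0.201, edgeR adjusted p = 2.56e-06). COL11A1 (ENSG00000060718), a type XI chain best known from cartilage fibrils, was at 11.4, 11.02, 14.1 and 10.9 CPM with DMSO, 3.67, 3.35, 3.04 and 5.33 with 4OHT and 3.78, 2.99, 3.97 and 3.31 with 4OHT+3DA. It was 3.06-fold lower with 4OHT, again with no overlap (log2 fold change −1.61, SE 0.183, edgeR adjusted p = 4.32e-07). Neither moved past the threshold with 3DA (0.27, SE 0.171, for COL5A3 and −0.14, SE 0.194, for COL11A1). COL24A1 and COL27A1, of the developmental fibrillar subgroup, had group means of 2.75 to 2.88 and 1.69 to 2.45 CPM and were called in no comparison. In sum, the 9 tested fibrillar genes were 6 lower and 1 higher with 4OHT (median −0.70), 1 lower with 3DA added (median −0.14), and 6 lower and 1 higher in 4OHT+3DA against DMSO (median −0.85). The shares of all genes were 26.5% higher and 25.5% lower with 4OHT, 14.4% higher and 12.4% lower with 3DA added and 27.0% higher and 24.6% lower against DMSO, so the 1 of 9 with 3DA was near the background.

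**Figure D3:**
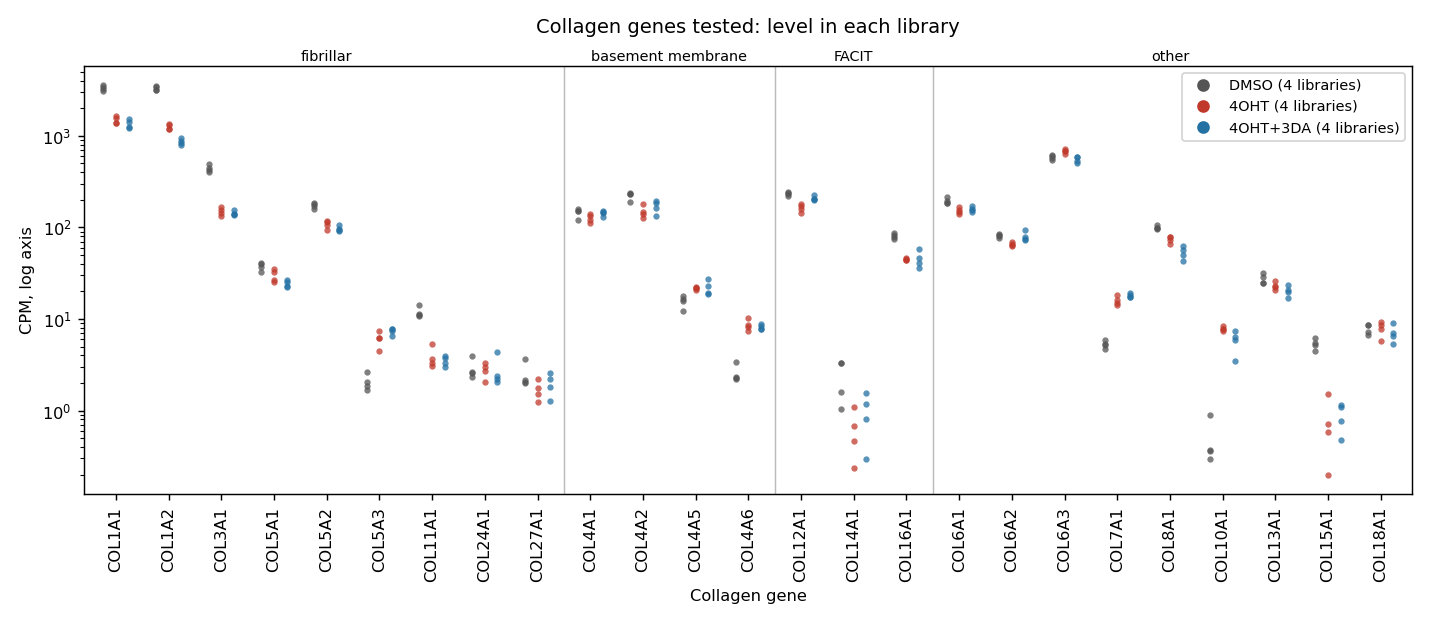
CPM on a log axis of the 25 tested collagen genes in each of 12 libraries, by class and coloured by group. COL1A1 and COL1A2 lie above the other collagens in every group, and the DMSO points of COL10A1, at most 0.8996 CPM, lie apart from the 4OHT points at 7.33 to 8.35 CPM.

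Basement membrane collagens split between their gene pairs. COL4A1 and COL4A2, the chains of the common type IV network, start 126 bases apart on opposite strands in RefSeq (GRCh38.p14), and COL4A6 and COL4A5 start 379 bases apart in the same way. The whole stretch between the COL4A1 and COL4A2 starts (chr13:110307158-110307283, read on the plus strand toward COL4A2) and the 250 bases before the COL4A6 start (chrX:108439459-108439708, minus strand) are shown because the members of each pair start close together. RefSeq lists another COL4A6 start downstream, whose window is not printed. Capitals mark a CCAAT box (CCAAT) or a GC box (GGGCGG) on either strand.
COL4A1-COL4A2: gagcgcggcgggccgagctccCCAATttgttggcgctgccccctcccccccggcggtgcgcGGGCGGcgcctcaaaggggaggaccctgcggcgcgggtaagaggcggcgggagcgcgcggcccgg
COL4A6: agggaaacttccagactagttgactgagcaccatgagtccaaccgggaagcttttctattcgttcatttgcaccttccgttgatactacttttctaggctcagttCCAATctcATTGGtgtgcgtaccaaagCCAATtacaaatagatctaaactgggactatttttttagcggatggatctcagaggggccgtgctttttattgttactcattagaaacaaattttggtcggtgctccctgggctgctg
CCAAT occurs in 32% of the 35116 upstream windows of 250 bases in the RefSeq table and GGGCGG in 42.6%. These letters are matches and not measured binding. Promoter entries were matched for 32 of the 44 collagen genes, 18 of them tested. COL1A1, COL1A2 and COL3A1 were among the genes without an entry. CCAAT was found for 11 of the 32 and GGGCGG for 21, in any window of the gene. Counted by window, they were in 12 and 24 of the 44 collagen windows. For COL4A6, the GGGCGG match lies in the window that is not printed.

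COL4A2 (ENSG00000134871) was at 230.1, 229.8, 236 and 188 CPM with DMSO, 128, 139, 147 and 179 with 4OHT and 165, 193, 132 and 186 with 4OHT+3DA. It fell with 4OHT (log2 fold change −0.57, SE 0.115, edgeR adjusted p = 0.000336), and all DMSO values, down to 188 CPM, stayed above the 4OHT values. With 3DA it was not called (0.19, SE 0.115, edgeR adjusted p = 0.243), but it was called higher without library 31 (0.29, adjusted p = 0.0239) and with a GC correction (0.27, adjusted p = 0.0421). COL4A1 (ENSG00000187498) was at 152, 149.7, 159 and 121 CPM with DMSO, 121, 111, 139.9 and 134 with 4OHT and 144, 148, 131 and 149.6 with 4OHT+3DA. It missed the threshold with 4OHT (log2 fold change −0.20, SE 0.0895, edgeR adjusted p = 0.0665), its DMSO library 20 falling among the 4OHT values, and it was called lower without that library (−0.30) and in 4 other settings, in which it lay between −0.36 and −0.20. With 3DA added, COL4A1 was at 0.18 (SE 0.0891), which, of the settings run, was called only with a GC correction (0.25, adjusted p = 0.025).

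The X-linked pair rose. COL4A6 (ENSG00000197565), a chain of the type IV network around smooth muscle and some epithelia, was at 2.25, 3.37, 2.31 and 2.198 CPM with DMSO, 10.1, 8.61, 8.21 and 7.33 with 4OHT and 7.79, 8.91, 7.77 and 8.49 with 4OHT+3DA. The DMSO values lay below all others, and the gene was 3.34-fold higher with 4OHT (log2 fold change 1.74, SE 0.178, edgeR adjusted p = 1.12e-07). COL4A5 (ENSG00000188153), its partner chain, was at 17.9, 16.6, 15.8 and 12.3 CPM with DMSO, 22.3, 20.5, 21.5 and 22.05 with 4OHT and 18.6, 27.3, 19.3 and 22.8 with 4OHT+3DA. It was 1.38-fold higher with 4OHT (log2 fold change 0.47, SE 0.135, edgeR adjusted p = 0.00659), without overlap, and this call was lost when library totals replaced the scaling factors (0.31, adjusted p = 0.0687). Neither changed past the threshold with 3DA (−0.049, SE 0.153, for COL4A6 and 0.029, SE 0.129, for COL4A5), and both stayed higher than in DMSO (1.69, SE 0.176, and 0.50, SE 0.133). The pair COL4A3 and COL4A4, known from the kidney, had 11 and 4 reads in all 12 libraries together. Of the 4 tested genes, 2 were higher and 1 lower with 4OHT (median 0.13), none was called between 4OHT+3DA and 4OHT, and 2 were higher and 1 lower in 4OHT+3DA against DMSO. Of all genes, 52.0%, 26.9% and 51.5% were called in these comparisons.

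The 3 tested FACIT collagens, of 10, fell with 4OHT (median −0.85), where 25.5% of all genes did. COL14A1 among them reached the filter's level in 1 4OHT library and was tested only through its higher DMSO libraries. COL12A1 (ENSG00000111799), which coats type I fibrils, was at 238, 230.4, 241 and 218 CPM with DMSO, 157, 144, 179 and 171 with 4OHT and 203, 227, 203 and 199.9 with 4OHT+3DA. No pair of these groups overlapped except DMSO with 4OHT+3DA. The gene fell with 4OHT (log2 fold change −0.51, SE 0.0745, edgeR adjusted p = 1.08e-05), rose with 3DA (log2 fold change 0.35, SE 0.0743, edgeR adjusted p = 0.00171), and was not called between 4OHT+3DA and DMSO (−0.16, SE 0.074, edgeR adjusted p = 0.0852), though it was lower there with library totals (−0.25). COL16A1 (ENSG00000084636), a FACIT of fibroblast matrix, was at 86.7, 79.3, 81.99 and 74.9 CPM with DMSO, 45.5, 43.8, 46.1 and 43.8 with 4OHT and 40.4, 46.3, 35.7 and 58.1 with 4OHT+3DA. It fell with 4OHT with no overlap (log2 fold change −0.85, SE 0.112, edgeR adjusted p = 3.06e-06), and its 4OHT and 4OHT+3DA means of 44.8 and 45.1 CPM hardly differed (0.0093, SE 0.112). COL14A1 (ENSG00000187955), a binder of fibrils and of decorin, was low at 3.33, 1.05, 3.32 and 1.61 CPM with DMSO, 0.676, 0.239, 1.104 and 0.466 with 4OHT and 0.2998, 1.55, 0.806 and 1.17 with 4OHT+3DA. Its groups overlapped and its fall with 4OHT came from few reads (log2 fold change −1.85, SE 0.502, edgeR adjusted p = 0.00444). The fall of COL14A1 in 4OHT+3DA against DMSO (−1.24, SE 0.455) was not called without DMSO library 17 or 19 or 4OHT+3DA library 29 (−1.02 to −0.94).

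Type VI collagen, a beaded filament around cells that joins the chains of COL6A1, COL6A2 and COL6A3, had chains that moved apart. COL6A3 (ENSG00000163359) was at 607, 577, 614 and 545 CPM with DMSO, 691, 626, 675 and 723 with 4OHT and 528, 585, 505 and 589.7 with 4OHT+3DA. The 4OHT values lay above both other groups: COL6A3 was 1.16-fold higher with 4OHT than with DMSO (log2 fold change 0.21, SE 0.0686, edgeR adjusted p = 0.014) and 1.23-fold lower when 3DA was added (log2 fold change −0.30, SE 0.0685, edgeR adjusted p = 0.00334). The rise depended on the scaling, being 0.055 with library totals (adjusted p = 0.565), and on single libraries, being 0.16 without DMSO library 20 and 0.18 without 4OHT library 24 (adjusted p = 0.0588 and 0.0524). COL6A1 (ENSG00000142156) was at 185, 193, 186 and 214 CPM with DMSO, 142, 149, 168 and 153 with 4OHT and 158, 154, 149 and 172 with 4OHT+3DA. It fell with 4OHT without overlap (log2 fold change −0.35, SE 0.0741, edgeR adjusted p = 0.000617) and was not called with 3DA (0.048, SE 0.0739). COL6A2 (ENSG00000142173) was at 81.4, 83.2, 75.9 and 85.5 CPM with DMSO, 64.9, 62.6, 65.4 and 68.8 with 4OHT and 75.1, 78.9, 72.98 and 93.6 with 4OHT+3DA. Here the 4OHT libraries were the lowest: COL6A2 fell with 4OHT (log2 fold change −0.32, SE 0.0824, edgeR adjusted p = 0.00323) and rose with 3DA (log2 fold change 0.29, SE 0.0818, edgeR adjusted p = 0.0129), with no call between 4OHT+3DA and DMSO (−0.025, SE 0.0815).

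The steepest rise among the collagens was that of COL10A1 (ENSG00000123500), the network-forming type X collagen known from growth plate chondrocytes. It was at 0.294, 0.8996, 0.369 and 0.366 CPM with DMSO, 7.73, 7.33, 8.35 and 7.86 with 4OHT and 6.35, 5.87, 7.42 and 3.52 with 4OHT+3DA, with 24 reads in the DMSO libraries together, so it was tested only through its treated groups. The highest DMSO value, 0.8996 CPM, lay below the lowest 4OHT+3DA value, 3.52 CPM. COL10A1 was 15.5-fold higher with 4OHT (log2 fold change 3.95, SE 0.306, edgeR adjusted p = 2.04e-09) and 11.5-fold higher with 4OHT+3DA than with DMSO (log2 fold change 3.53, SE 0.31, edgeR adjusted p = 1.56e-08), while the 2 treated groups overlapped (−0.43, SE 0.209, edgeR adjusted p = 0.14). Of the cartilage markers, SOX9 stood at 28.9 ± 0.861 CPM with DMSO and 28.8 ± 0.711 with 4OHT, MATN3 at 6.87 ± 1.81 and 1.39 ± 0.886 CPM, and ACAN, COMP, MATN1 and CHAD had 47, 29, 3 and 1 reads in all libraries. The 6 cartilage markers summed to 35.1 to 37.97 CPM with DMSO, 28.8 to 32.4 with 4OHT and 24.97 to 31.8 with 4OHT+3DA. RefSeq lists several starts for COL10A1, and counts per gene do not tell which was used. The 250 bases before the pair of starts that hold a TATA-type match are printed, since this gene moved the most, at chr6:116126133-116126382 and chr6:116158773-116159022 (GRCh38.p14, minus strand). Capitals mark matches on either strand. They are the CCAAT box named above, the letters TGANTCA, where N is any base, and, for a TATA box, the letters TATAAA. The TGANTCA matches printed here read TGAATCA and TGATTCA.
COL10A1 start 1: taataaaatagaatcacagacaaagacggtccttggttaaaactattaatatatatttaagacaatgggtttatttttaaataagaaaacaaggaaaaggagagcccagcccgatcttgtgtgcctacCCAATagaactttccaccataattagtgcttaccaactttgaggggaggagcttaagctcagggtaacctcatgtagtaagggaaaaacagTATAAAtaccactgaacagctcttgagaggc
COL10A1 start 2: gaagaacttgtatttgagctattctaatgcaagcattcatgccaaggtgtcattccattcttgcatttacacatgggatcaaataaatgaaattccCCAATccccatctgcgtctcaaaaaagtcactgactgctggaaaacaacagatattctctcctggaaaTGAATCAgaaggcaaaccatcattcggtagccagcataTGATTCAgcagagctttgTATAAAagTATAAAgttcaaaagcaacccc
TGANTCA was found in 6.57% and TATAAA in 10.7% of all upstream windows, and in 1 and 8 of the 44 collagen windows. Among the 32 collagen genes with an entry, counted over any window of the gene, COL10A1 was the 1 with a TGANTCA match and 1 of 7 with TATAAA. COL1A1, COL1A2 and COL3A1 had no entry and were not searched. A match is a description of the sequence and no evidence that a factor acts there.

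COL7A1 (ENSG00000114270), which forms the anchoring fibrils under epithelia, was at 5.38, 5.17, 5.902 and 4.76 CPM with DMSO, 14.3, 14.8, 18.1 and 16.1 with 4OHT and 18.3, 17.4, 17.4 and 19.3 with 4OHT+3DA. It was 2.995-fold higher with 4OHT with no overlap (log2 fold change 1.58, SE 0.126, edgeR adjusted p = 3.21e-09) and was not called with 3DA (0.19, SE 0.111). COL8A1 (ENSG00000144810), a network-forming collagen of vessel walls and the eye, was at 97.4, 96.6, 99.3 and 105 CPM with DMSO, 65.8, 72.2, 77.8 and 77.6 with 4OHT and 49.9, 57.04, 42.8 and 62.8 with 4OHT+3DA. It fell in both steps with no overlap between any pair of groups, by 4OHT (log2 fold change −0.44, SE 0.0979, edgeR adjusted p = 0.000873) and again by 3DA (log2 fold change −0.47, SE 0.0986, edgeR adjusted p = 0.00178), and was 1.88-fold lower in 4OHT+3DA than in DMSO.

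The largest fold fall was that of COL15A1 (ENSG00000204291), a proteoglycan-like collagen of the basement membrane zone, at 4.502, 6.15, 5.16 and 5.49 CPM with DMSO, 0.579, 0.717, 1.52 and 0.1998 with 4OHT and 0.779, 1.08, 1.15 and 0.483 with 4OHT+3DA. DMSO values lay above all others, and the gene was 6.95-fold lower with 4OHT (log2 fold change −2.80, SE 0.366, edgeR adjusted p = 2.76e-06), with 40 reads in the 4OHT libraries together. COL15A1 reached the filter's level in 1 4OHT library, so it was tested only through its higher DMSO libraries. Without 4OHT library 23 the log2 fold change was −3.45, a fold over 1.5 times as large, and with each other library left out it was −2.87 to −2.45. COL15A1 was not called with 3DA (0.22, SE 0.425). The 250 bases before its RefSeq start (chr9:98943657-98943906, GRCh38.p14, plus strand) are given for contrast with COL10A1. They held 1 GC box (GGGCGG), in capitals, and no match to the other motifs searched.
COL15A1: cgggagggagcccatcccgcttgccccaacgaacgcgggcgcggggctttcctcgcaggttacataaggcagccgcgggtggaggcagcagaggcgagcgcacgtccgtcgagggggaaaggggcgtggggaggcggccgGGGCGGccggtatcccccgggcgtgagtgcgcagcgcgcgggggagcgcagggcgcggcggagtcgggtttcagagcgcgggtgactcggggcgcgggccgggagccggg
COL18A1 (ENSG00000182871), the related precursor of endostatin, was called in no comparison, with means of 7.84 ± 0.978, 7.88 ± 1.58 and 7.03 ± 1.59 CPM. COL13A1 (ENSG00000197467), a transmembrane collagen of cell contacts, was at 31.5, 29.1, 24.7 and 24.8 CPM with DMSO, 22.3, 23.1, 20.8 and 26.3 with 4OHT and 19.5, 23.3, 16.98 and 20.5 with 4OHT+3DA. It missed the threshold with 4OHT (log2 fold change −0.25, SE 0.118, edgeR adjusted p = 0.0851) and was lower in 4OHT+3DA than in DMSO (log2 fold change −0.45, SE 0.118, edgeR adjusted p = 0.00321). With 4OHT it was called lower in 5 other settings, in which it lay between −0.41 and −0.25. Among the 9 tested genes outside the named classes, 3 were higher and 4 lower with 4OHT (median −0.25), and 1 was higher and 2 lower with 3DA added. The counts with 4OHT include COL10A1 and COL15A1, each tested only through groups where it was high. All genes were 26.5% higher and 25.5% lower with 4OHT and 14.4% higher and 12.4% lower with 3DA added.

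Several pairs of chains that meet in 1 molecule differed between groups in their ratio of reads. For type I collagen, the reads of COL1A1 over those of COL1A2 were 0.999, 1.02, 1.014 and 0.989 in the DMSO libraries. They were 1.15, 1.184, 1.23 and 1.21 with 4OHT and 1.52, 1.61, 1.53 and 1.65 with 4OHT+3DA. No pair of groups overlapped, and the mean rose from 1.006 to 1.19 and 1.58. Per length of the longest coding transcript in GENCODE 29, the same means were 0.809, 0.9601 and 1.27, a ratio that depends on which transcripts are used. In type VI collagen, reads of COL6A3 over COL6A1 had means of 3.03 ± 0.354 with DMSO, 4.45 ± 0.405 with 4OHT and 3.49 ± 0.207 with 4OHT+3DA, and again no pair of groups overlapped. Reads of COL6A1 over COL6A2 had means of 2.39 ± 0.105, 2.34 ± 0.173 and 1.98 ± 0.112 in the same order. There DMSO and 4OHT overlapped, and 4OHT+3DA lay below both.

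For the type IV pair, reads of COL4A1 over COL4A2 were 0.6597, 0.652, 0.675 and 0.644 with DMSO and 0.942, 0.801, 0.952 and 0.747 with 4OHT. The 4OHT+3DA values of 0.876, 0.768, 0.998 and 0.805 overlapped those of 4OHT, and DMSO lay below both. Reads of COL4A5 over COL4A6 went from a mean of 6.33 ± 1.35 to 2.55 ± 0.35 with 4OHT and 2.65 ± 0.299 with 4OHT+3DA. The type V ratio, COL5A1 over COL5A2, overlapped between all groups, at 0.216, 0.278 and 0.253 on average. These ratios were chosen with the values in view and carry no test.

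**Figure D4:**
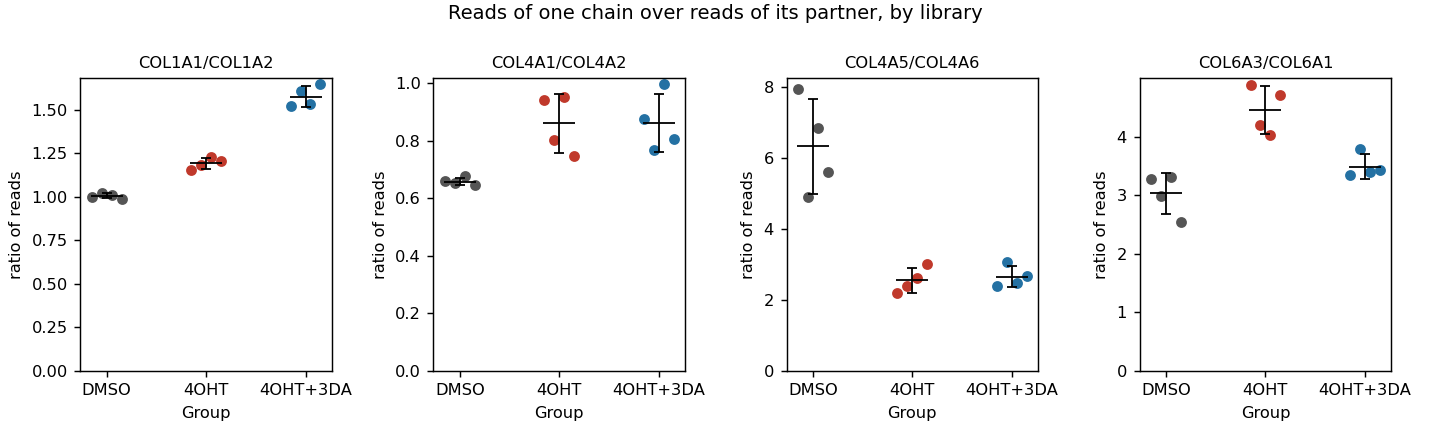
Ratio of reads of COL1A1 to COL1A2, COL4A1 to COL4A2, COL4A5 to COL4A6 and COL6A3 to COL6A1 (vertical axes, from 0) in each library of the 3 groups; bars are the mean and SD of 4 libraries. The COL1A1 to COL1A2 ratio lies at about 1.006 with DMSO and at 1.52 or above in all 4OHT+3DA libraries.

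Per kilobase of transcript, type I collagen was the most abundant in all groups. COL1A2 stood at 613 ± 34.2 RPKM (CPM per kilobase of transcript) with DMSO and COL1A1 at 496 ± 29.9 RPKM. COL3A1 followed at 79.4 ± 7.04 and COL6A3 at 54.5 ± 2.96 RPKM. With 4OHT, COL1A1 and COL1A2 were at 223 ± 19.04 and 232 ± 14.2 RPKM, within their spread of each other, while COL6A3 at 63.1 ± 3.76 RPKM stood above COL3A1 at 27.1 ± 2.81 RPKM. With 4OHT+3DA, COL1A1 at 202 ± 22.4 RPKM was above COL1A2 at 159 ± 11.6 RPKM. The share of COL1A1 and COL1A2 in all collagen reads was 73.02% to 73.97% with DMSO, 59.1% to 60.8% with 4OHT and 55.02% to 56.6% with 4OHT+3DA.

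The remaining 19 collagen genes were not tested for want of reads. COL23A1 and COL26A1 had no read in 12 libraries, which allows up to 0.0177 CPM (3 reads of 169021508), a limit that covers counting error only. The fibrillar COL2A1, the cartilage collagen, had 1 read in all, and COL11A2 had 13, 7 and 19 reads in the DMSO, 4OHT and 4OHT+3DA groups. Among FACIT genes, COL9A2 had 45, 14 and 19 reads in that order, COL19A1 7, 36 and 31 and COL22A1 0, 11 and 7. Those of COL22A1 came from 5 of the 12 libraries. With no filter on low counts, these were called with 4OHT, COL9A2 lower and COL19A1 and COL22A1 higher, and COL8A2, COL9A2, COL17A1 and COL6A6 were called lower in 4OHT+3DA against DMSO. COL9A1, COL9A3, COL20A1 and COL21A1 had 10, 13, 5 and 7 reads in all. Of the others, COL28A1 had 21, 28 and 31 reads by group and COL17A1, a collagen of epithelial attachment, 26, 25 and 9. COL8A2 had 13, 4 and 1 and COL6A6 8, 3 and 0, while COL25A1 had 23 and COL6A5 1 in all. The 10 antisense, divergent and pseudogene identifiers named after collagens held at most 10 reads each. The kit does not mark strand and the handling of strand is not stated, so these counts do not give the level of such partners.

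Genes that make, crosslink, bind and cut collagen were set beside the collagens from lists chosen with earlier results of these data known. All 5 lysyl oxidase genes fell with 4OHT (median −1.44), beside 25.5% of all genes. LOXL1 stood at 15.6 ± 0.725 CPM with DMSO and 4.29 ± 0.348 CPM (log2 fold change −1.87, SE 0.186, edgeR adjusted p = 7.64e-08) with 4OHT. LOXL3 fell from 8.91 ± 1.17 to 3.27 ± 0.423 CPM (−1.45, SE 0.213). LOX, the founding member, named here after its values were seen, fell from 540.3 ± 48.2 to 247 ± 15.9 CPM and further to 179.6 ± 16.8 CPM with 3DA (−0.46, SE 0.0795, edgeR adjusted p = 0.000298). In 4OHT+3DA against DMSO all 5 were lower, beside 24.6% of all genes, with LOXL1 at −2.17 and LOXL4 at −1.90. Between 4OHT+3DA and 4OHT, 2 of the 5 fell, LOX and LOXL4 (−0.46, SE 0.167, edgeR adjusted p = 0.0467), beside 12.4% of all genes.

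The 18 hydroxylases, glycosyltransferases and chaperones of the endoplasmic reticulum were mostly higher or not called. With 4OHT, 9 were higher and 4 lower (median 0.21), beside 26.5% higher and 25.5% lower among all genes. Chosen after their values were seen, PLOD2, a lysyl hydroxylase, rose from 106 ± 4.87 to 231 ± 12.6 CPM (log2 fold change 1.12, SE 0.109, edgeR adjusted p = 5.42e-08), and SERPINH1, a chaperone for procollagen, was reduced from 466 ± 17.1 to 302 ± 17.9 CPM (log2 fold change −0.63, SE 0.0802, edgeR adjusted p = 2.18e-06). With 3DA added, 1 was higher and 5 lower of 18, beside 14.4% higher and 12.4% lower among all genes. Counted in either direction, the share called was near the 26.9% of all genes called there. The lower ones, named after their values were seen, were P4HB, PLOD3, P4HA2, CRTAP and P3H2, all of which act in hydroxylation of procollagen. The higher one was FKBP14, a prolyl isomerase (0.23, SE 0.0815, edgeR adjusted p = 0.0451), whose call was lost in 10 of the 12 runs that left out 1 library (all but DMSO library 20 and 4OHT+3DA library 32). It was 0.17 without library 31 and 0.21 to 0.25 in the other 9 of these runs, and its sign turned with a GC correction (−0.0051). Of 5 tested genes for cutting off propeptides, 3 (PCOLCE, ADAMTS2 and PCOLCE2) were lower and 1 (ADAMTS3) higher with 4OHT, and 1 (BMP1, a C-proteinase) was lower with 3DA added; these too were named after their values were seen. ADAMTS3 was under the filter's level in 1 DMSO library.

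Of 7 collagen-degrading proteases, 5 were tested and were higher with 4OHT (median 1.27), beside 26.5% of all genes. MMP8 passed the filter only through the groups given 4OHT, so it had to differ to be tested, and MMP9 and MMP13 had 34 and 20 reads and were not tested. MMP1, interstitial collagenase, stood at 711, 769, 678 and 675 CPM with DMSO, at 7283, 6879, 7044 and 7076 with 4OHT and at 7594, 7796, 8804 and 7373 with 4OHT+3DA. Its log2 fold change with 4OHT was 3.32 (SE 0.0666), and from 4OHT to 4OHT+3DA it was 0.16 (SE 0.0607, edgeR adjusted p = 0.0597). MMP8, neutrophil collagenase, had 1 read with DMSO, in library 17, and 43 with 4OHT, a ratio of 39.4 (95% exact counting interval 6.71 to 1593). With 4OHT+3DA it had 50 reads, a ratio to DMSO of 35.4 (6.06 to 1424). With 3DA added, 2 of the 5 fell, beside 12.4% of all genes. MMP2, named after its values were seen, was at −0.48 (SE 0.0709), and CTSK, cathepsin K, went down from 373 ± 17.7 to 257 ± 10.9 CPM (log2 fold change −0.54, SE 0.0607, edgeR adjusted p = 2.81e-06).

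Collagen receptors were mixed with 4OHT, 3 higher and 3 lower of 8 tested (median −0.12), and 1 was higher and 4 lower with 3DA added (median −0.41). All genes were 26.5% higher and 25.5% lower with 4OHT and 14.4% higher and 12.4% lower with 3DA added. The 4 lower ones were ITGA11 and, named after their values were seen, MRC2, DDR1 and DDR2. ITGA11, an integrin subunit that binds fibrillar collagen on fibroblasts, dropped with 3DA from 43.03 ± 1.597 to 24.9 ± 3.37 CPM (log2 fold change −0.79, SE 0.109, edgeR adjusted p = 2.81e-05). ITGA2, of the other main collagen-binding integrin, rose from 345 ± 22.9 to 405 ± 39.2 CPM (log2 fold change 0.23, SE 0.0796, edgeR adjusted p = 0.0383), a call lost without 1 of 5 libraries (4OHT 21, 22 or 24, or 4OHT+3DA 30 or 31; 0.16 to 0.25) and with a GC correction (0.046). In 4OHT+3DA against DMSO, 1 receptor was higher and 6 lower, beside 27.0% higher and 24.6% lower among all genes. The medians of all genes tested were −0.011 with 4OHT and 0.0051 with 3DA added.

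**Figure D5:**
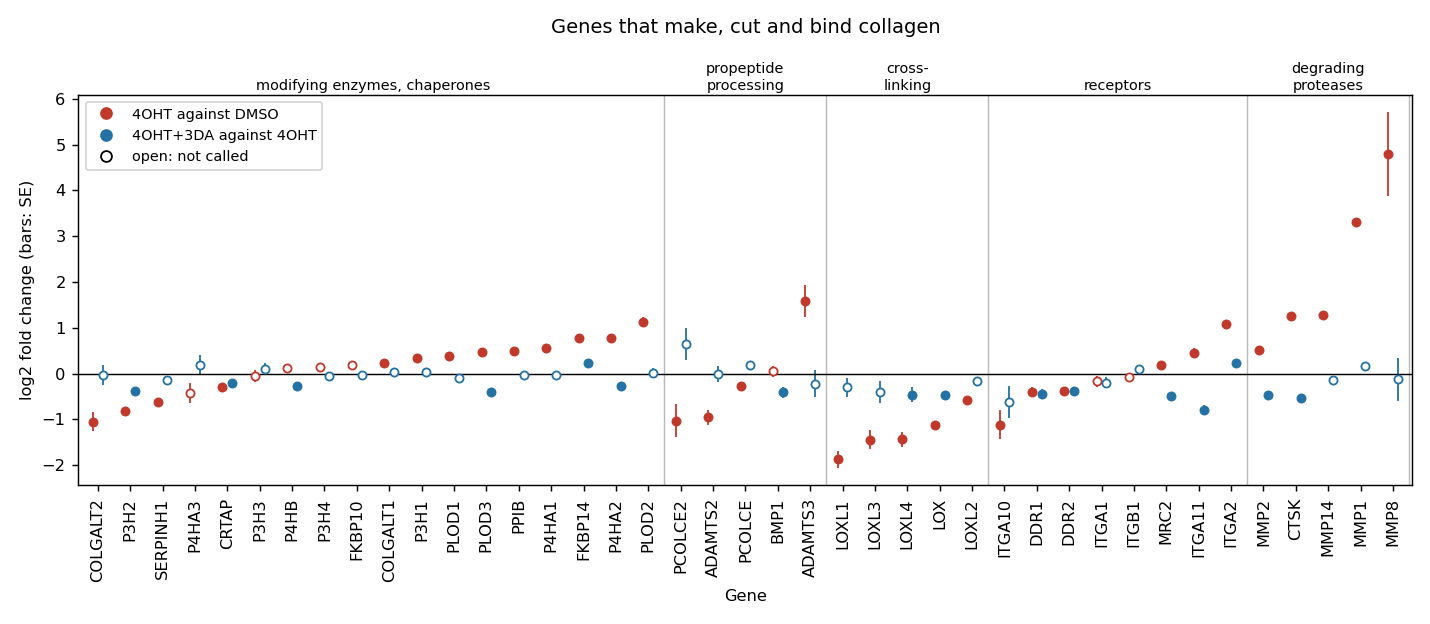
Log2 fold change (vertical axis; bars are the SE) of tested genes for collagen modification, propeptide processing, crosslinking, binding and degradation, for 4OHT against DMSO (red) and 4OHT+3DA against 4OHT (blue); open points were not called. All 5 lysyl oxidases lie below 0 and all 5 proteases above 0 in red.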

How the data were processed

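Per the labels' protocols, Smart-Seq2 and Nextera XT were used. The authors deposited raw read counts for each gene, without normalisation. CASAVA 1.8.2, TopHat2 2.0.11 and featureCounts 1.18.0, with hg19 and GRCh37, are named in the submitters' processing notes. How strand and multi-mapped reads were handled is not stated there. Symbols came from a table of gene names (50127 of 62069 identifiers matched).

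Genes were kept by filterByExpr (minimum count 10), scaled by TMM and fitted in edgeR 4.0.16 (R 4.3.3) in 1 quasi-likelihood model of 12 libraries and 3 groups, with 9 residual degrees of freedom. P-values were Benjamini-Hochberg adjusted over 13248 genes, threshold 0.05. The SE is the absolute log2 fold change divided by the root of F. Lengths and GC content are of the longest coding transcript in GENCODE 29. Alternatives were DESeq2 1.42.0, limma-voom (limma 3.58.1), other scalings, filters and thresholds, a GC correction (loess, span 0.4) and each library left out, with the filter renewed. The fit was tested on simulated data.

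The members and lists were chosen with earlier results of these data known. Values in every library are given for collagens with a group mean of at least 20 CPM or a called log2 fold change of at least 1, and the 2 largest rises and falls of the 5 pathway lists are named; other named list genes are said to be so.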

Additional observations from a re-analysis of the deposited data

Results flagged for a closer look

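In groups of 4 libraries, a value was singled out when its gap to the nearest of the others passed Dixon's 95% critical value as a share of the group's range. Of 90 groups of values screened, 9 met this, and chance alone gives about 1 in 20. With DMSO, library 20 was low for COL4A2 (188 CPM) and with it for the basement membrane sum (324 CPM). Library 18 was high for COL4A6 (3.37 CPM) and COL10A1 (0.8996 CPM). Library 19 was high for COL11A1 (14.1 CPM) and library 17 for COL27A1 (3.62 CPM). With 4OHT+3DA, library 30 was high for COL12A1 (227 CPM) and COL24A1 (4.38 CPM), and library 32 for COL3A1 (154 CPM).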

How the results depend on the processing

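Counts of called collagens with each library left out stayed at 5 to 6 higher and 13 to 17 lower for 4OHT against DMSO, 2 to 3 and 3 to 4 for 4OHT+3DA against 4OHT, and 5 and 13 to 14 for 4OHT+3DA against DMSO. For 4OHT+3DA against 4OHT, 1 collagen was higher at an adjusted p under 0.01 and 4 with a GC correction, against 2. Scaling by library totals moved the all-gene medians and splits given above, and the DMSO sums moved to 7769 CPM for fibrillar, 336 for FACIT, 1070.5 for other and 9584 for all collagens, from 7322, 316, 1009 and 9032 CPM. The 4OHT sums went down, to 2905, 199, 977 and 4372 CPM, so the other collagens turned from slightly higher to lower with 4OHT. FKBP14 was at −0.0051 with a GC correction in 4OHT+3DA against 4OHT. The cause was not tested. Members under about 1 CPM rest on few reads, which limits what can be said of them. No paired analysis was possible because the groups share no replicate numbers.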
